A study of Mus musculus with 4 samples.

Results

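The Zfp genes encode zinc finger proteins, and their transcripts were measured in lineage-negative marrow cells from wild-type animals and from animals without Mtg16 (symbol Cbfa2t3). Genes were taken by their symbol, the letters Zfp followed by a number, leaving out Zfp36 and Zfp276. On the array 207 such genes had a probe with no other gene assigned to it. The probe with the highest mean log2 signal stood for its gene, and a gene was kept where that mean lay in the upper 50% of all probes, which left 155 of 207. These 155 belong to a set of 8445 genes kept by the same rule on the whole array. The rule used signal averaged over both genotypes and no difference between them, but it was set with earlier results of these data known. For 8 members the mean of 1 genotype lay under the level needed, so these were kept through the other genotype.

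The strain of the wild-type group was C57BL/6, and the Mtg16 null group had been backcrossed into C57BL/6 for 4 generations. All were females of 8 to 12 weeks. RNA came from marrow of femur and tibia pooled from 4 mice and depleted of lineage-positive cells on magnetic columns. There were 2 arrays per genotype, and array lots 1 and 2 each held 1 array of each genotype. Separate pools for the 2 arrays of a genotype are not stated, so p-values rest on the spread among these 4 samples alone, and that spread may be technical.

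Most Zfp proteins bind DNA through C2H2 zinc fingers, short loops in which a pair of cysteines and a pair of histidines hold a zinc ion. Many also carry a KRAB domain, which recruits the corepressor Trim28 and, with it, the histone methyltransferase Setdb1 and heterochromatin proteins, and is best known for silencing retroelements. Other members have no part in that pathway and act in RNA processing, ribosome assembly, protein modification or mitosis. KRAB zinc finger genes lie in clusters that grew by duplication. Mtg16 itself is a corepressor of the ETO family that is brought to DNA by zinc finger and E protein partners.

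Most of the family differed little between the genotypes. With limma, 0 of the 155 genes passed at an adjusted p under 0.05 over all genes, against 0.118% of the 8445, and the smallest adjusted p was 0.0975, for Zfp454. At an unadjusted p under 0.05, 8 members (5.16%) were higher in the null arrays, where the share of all genes was 9.65%, and 2 (1.29%) were lower, where it was 6.83%. By 1.5-fold or more in the same direction in both lots, 6 members (3.87%) were higher and 4 (2.58%) lower, beside 8.54% and 5.74% of all genes. The difference of 135 members (87.1%) stayed within 1.5-fold, as it did for 76.6% of all genes. These shares are descriptions, and the gap between the family and the other genes was not tested. The number of arrays limits what could pass.

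The counts at an unadjusted p depended on whether the array lot was in the fit. With the array lot as a block in the limma fit, 13 members were higher and 12 lower at an unadjusted p under 0.05 (13.3% and 11% of all genes), and again 0 passed at an adjusted p under 0.05. Of the 10 called without the block, 9 were called with it. Counts with an array left out are not given, since a genotype then rests on a single array.

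Differences are given as null minus wild type on the log2 scale. Their median over the 155 was 0.07, beside -0.02 over all 8445 genes, and the middle 80% ran from -0.44 to 0.50, against -0.58 to 0.74. The median was 0.06 in lot 1 and 0.03 in lot 2. Leaving out wild-type array 1 gave -0.07 and leaving out null array 2 gave -0.02, so it has no settled sign. Of the members, 56 (36.1%) were higher in both lots and 48 (31.0%) lower in both, beside 33.6% and 36.8% of all genes. The other 51 had opposite signs, so 67.1% of members kept their sign between lots, beside 70.4% of all genes. The groups did not overlap for 33 members that were higher in the null arrays and for 33 that were lower (21.3% each), beside 22.6% and 23.1% of all genes.

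**Figure D1:**
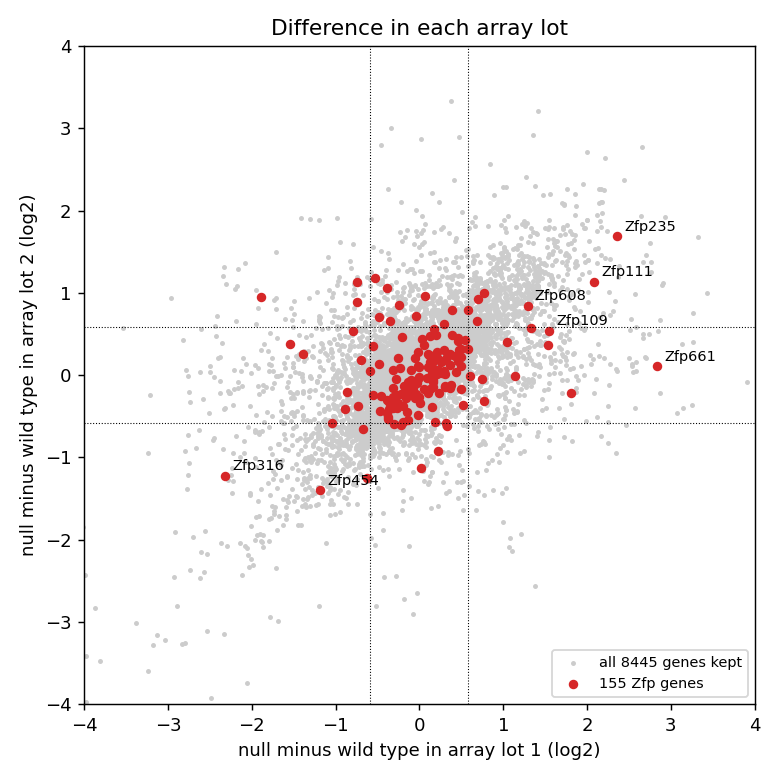
Null minus wild type on the log2 scale in array lot 1 (horizontal) and lot 2 (vertical), for the 155 Zfp genes (red) and all 8445 genes kept (grey); dotted lines mark 1.5-fold. Members lie near the centre, with 6 beyond both lines on the upper right and 4 on the lower left. The axes end at 4, which leaves out 21 genes.

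Zfp235, Zfp111 and Zfp109, among the 12 highest members, lie close together on chromosome 7, and the DNA before their start sites is shown with that of Zfp184, which was also higher, and of Zfp454 and Zfp316, the lowest members. The 250 bases before the first start site listed for each gene are from RefSeq (GRCm38.p6), written 5′ to 3′ on the strand of the gene. Capitals mark matches on either strand to the longer motif, ACTACA, any 2 bases and TCCC, or to TCCCAGAA. These motifs can overlap by 4 bases and were chosen after the sequences were seen.
Zfp111, chr7:24208150-24208399, minus strand: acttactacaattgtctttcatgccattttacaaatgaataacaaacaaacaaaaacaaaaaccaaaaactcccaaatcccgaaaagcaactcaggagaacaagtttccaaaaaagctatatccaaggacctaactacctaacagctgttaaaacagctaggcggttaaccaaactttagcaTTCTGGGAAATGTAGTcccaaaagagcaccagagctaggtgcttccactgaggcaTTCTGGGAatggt
Zfp109, chr7:24237599-24237848, minus strand: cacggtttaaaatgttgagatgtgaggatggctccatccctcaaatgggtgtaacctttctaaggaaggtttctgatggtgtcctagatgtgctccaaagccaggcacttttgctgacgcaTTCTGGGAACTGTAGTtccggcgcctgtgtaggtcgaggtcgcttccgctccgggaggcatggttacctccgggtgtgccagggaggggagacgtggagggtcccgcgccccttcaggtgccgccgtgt
Zfp235, chr7:24132122-24132371, plus strand: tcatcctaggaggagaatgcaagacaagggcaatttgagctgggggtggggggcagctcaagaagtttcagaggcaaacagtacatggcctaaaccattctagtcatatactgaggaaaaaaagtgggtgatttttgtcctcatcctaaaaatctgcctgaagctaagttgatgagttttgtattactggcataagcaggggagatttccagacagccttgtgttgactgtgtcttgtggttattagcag
Zfp184, chr13:21944844-21945093, plus strand: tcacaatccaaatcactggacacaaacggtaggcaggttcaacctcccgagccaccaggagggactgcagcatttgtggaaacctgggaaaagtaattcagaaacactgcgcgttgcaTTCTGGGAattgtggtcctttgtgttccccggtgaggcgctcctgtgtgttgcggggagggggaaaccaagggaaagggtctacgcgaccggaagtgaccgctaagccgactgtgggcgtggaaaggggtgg
Zfp454, chr11:50887511-50887760, minus strand: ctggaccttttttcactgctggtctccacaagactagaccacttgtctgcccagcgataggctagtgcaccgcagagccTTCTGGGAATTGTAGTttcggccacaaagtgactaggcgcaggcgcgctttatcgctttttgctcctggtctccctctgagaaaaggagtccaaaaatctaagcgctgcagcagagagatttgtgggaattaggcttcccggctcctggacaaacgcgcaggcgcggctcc
Zfp316, chr5:143270023-143270272, minus strand: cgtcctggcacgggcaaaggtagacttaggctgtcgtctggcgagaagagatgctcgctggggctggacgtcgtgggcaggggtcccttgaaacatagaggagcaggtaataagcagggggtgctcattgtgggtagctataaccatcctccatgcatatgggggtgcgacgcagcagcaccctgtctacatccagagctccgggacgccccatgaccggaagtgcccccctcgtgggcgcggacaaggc

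The stretch TTCTGGGAAATGTAGT before Zfp111 holds both motifs, as does TTCTGGGAACTGTAGT before Zfp109 and TTCTGGGAATTGTAGT before Zfp454. The match to the longer motif begins 64, 125 and 167 bases before the start in these 3 genes. Zfp184 holds TTCTGGGA alone, and neither motif was found in the windows of Zfp235 and Zfp316. The window of Zfp235 holds 0 CG pairs and that of Zfp111 holds 2, while Zfp109, Zfp184, Zfp454 and Zfp316 hold 13 to 15.

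The longer motif was frequent in the family whichever way a gene differed. Of 132 members with a window, 27 (20.5%) held it in at least 1 of their windows, against 1.92% of all 27025 genes with a window and 1.67% of all 32851 windows. The members had passed the signal filter and the 27025 genes had not been filtered. The motif was chosen on windows of members, and the gap was not tested. TCCCAGAA was found in 12.1% of members and 3.07% of genes. The median difference was 0.21 for the 27 members with the longer motif and 0.009 for the rest, but its holders included Zfp111, among the highest, and Zfp454, among the lowest. Zfp143, a zinc finger activator, is known to bind promoter elements that contain this motif, and its own transcript was not analysed here. The E-box CANNTG, the site of E proteins, was in 68.2% of members and 69.3% of genes. The GC box GGGCGG was in 47.7% and 35.4%, and TATAAA in 6.82% and 14.3%. The median GC content of the windows was 55.6% in members and 52.4% in all genes.

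Zfp111, a KRAB zinc finger gene, had the largest difference among members whose groups did not overlap and were higher. It read 374 and 774 signal units in wild-type arrays 1 and 2, and 1580 and 1703 in null arrays 1 and 2. Both null arrays were thus above both wild-type arrays, and the wild-type arrays differed from each other 2.07-fold. The mean was 574 ± 283 in wild type and 1642 ± 86.7 in null (SD, n = 2). The difference of the mean log2 signals was 1.61, or 3.05-fold between geometric means, as for the other folds given (SE 0.40, limma adjusted p = 0.189).

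Zfp235, a neighbour of Zfp111, ranked first by the smaller of its 2 within-lot differences, but its groups overlapped. It read 144 and 761 units in wild type and 737 and 2451 in null arrays 1 and 2. Within lot 1 the null array was 5.12-fold higher and within lot 2 the log2 difference was 1.69, while lot 2 read higher than lot 1 in either genotype. The log2 difference over the 4 arrays was 2.02 (SE 1.05, limma adjusted p = 0.457), and 0.82 without wild-type array 1, whose signal of 144 lay in the range of Y-linked probes. The 3 probes for genes of the Y chromosome, absent from females, read 94.5 to 310 units, so a signal in that range is not resolved from background. With the lot as a block the SE of Zfp235 was 0.23 and the unadjusted p was 0.00426 (adjusted p = 0.113).

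Zfp109, next to Zfp111, read 543 and 654 units in wild type and 1592 and 951 in null arrays 1 and 2, without overlap. Its log2 difference was 1.05 (SE 0.32, limma adjusted p = 0.253), 1.55 in lot 1 and 0.54 in lot 2, and it was 0.67 without null array 1. Zfp180, at the other end of the same run of neighbours, went the other way. It read 13226 and 15453 units in wild type and 11536 and 11938 in null (difference -0.28, SE 0.18, limma adjusted p = 0.550).

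Neighbours were defined as kept Zfp genes with at most 1 other protein-coding gene between them in the RefSeq order. There were 23 runs of 2 or more, which held 63 of the 155 members, and the longest had 7. The run with Zfp180, Zfp235, Zfp111 and Zfp109 had the highest median, 1.33. Counting every listed gene model, noncoding ones included, splits it into 2 pairs. In the run of 7 on chromosome 7, Zfp74 (0.75 and -0.04 in lots 1 and 2), Zfp82 (0.23 and -0.21) and Zfp566 (0.50 and -0.17) changed sign between lots. This run had a median of 0.21 and 6 members with a positive mean difference, those included. Its largest difference was that of Zfp14, a KRAB gene that read 234 and 412 units in wild type and 591 and 614 in null (log2 difference 0.96, SE 0.33, adjusted p = 0.284; 0.55 without wild-type array 1). Wild-type array 1 of Zfp14 lay in the range of Y-linked probes, so this size is not resolved from background, and the gene was kept through its null arrays. In the run of Zfp954, Zfp418 and Zfp772 the differences were 0.05, 0.95 and 0.43, and wild-type array 1 of Zfp418, at 308 units, lay in the Y-linked range. On chromosome 11, Zfp454 and its neighbour Zfp2 were both lower, with differences of -1.30 and -0.53.

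**Figure D2:**
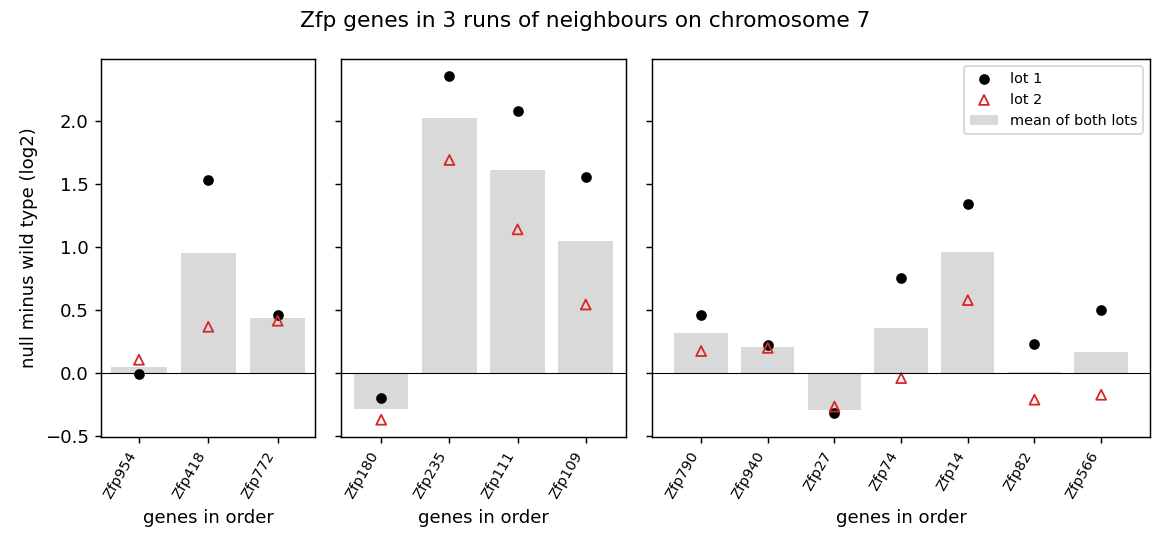
Null minus wild type on the log2 scale for Zfp genes in 3 runs of neighbours on chromosome 7, in gene order; bars are the mean of both array lots and points the single lots. Zfp235, Zfp111 and Zfp109 stand at 2.02, 1.61 and 1.05 beside Zfp180 at -0.28.

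Chromosome 7 held 42 of the 155 members, more than any other. Of these 26 (61.9%) had a positive sign and the median was 0.17, while the 113 on other chromosomes had 59 positive (52.2%) and a median of 0.04. Some signs on chromosome 7 rested on wild-type array 1. Without it Zfp61, Zfp82 and Zfp606 turned negative (-1.27, -0.61 and -0.19), and Zfp524 turned positive (0.30). The share of positive signs with an array left out is not given. The other 637 kept genes of chromosome 7 had a median of -0.007. Among the 12 highest members 6 lie on chromosome 7, and among the 12 lowest 0 do. The 6 members on chromosome 18 all had positive mean differences, with a median of 0.47, beside 0.0006 for the other 181 kept genes there. Of these members, Zfp438 changed sign between lots (1.81 in lot 1 and -0.21 in lot 2). Its wild-type array 1, at 249 units, lay in the Y-linked range. Zfp397, Zfp35 and Zfp24 are neighbours in a single run. Chromosomes were not tested against each other. Genes of a cluster can be similar in sequence, and whether a probe also reads its neighbours was not tested.

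Other members higher in the null arrays came from several chromosomes. Zfp608, reported as a repressor of the recombinase genes Rag1 and Rag2 in thymocytes, read 798 and 926 units in wild type and 1952 and 1662 in null. The arrays did not overlap, and the log2 difference of 1.07 (SE 0.20, limma adjusted p = 0.122) was between 0.95 and 1.18 with any 1 array left out. Zfp184, a KRAB gene, read 2156 and 1854 units in wild type and 3661 and 3700 in null. That is 1.84-fold higher (SE 0.18 on the log2 scale, adjusted p = 0.137), and its 2 null arrays were nearly equal. Zfp516, a promoter-binding factor known from brown fat, differed by 0.59 on the log2 scale (SE 0.19, adjusted p = 0.269), with 0.39 in lot 1 and 0.79 in lot 2.

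Zfp706 was the brightest of the members that were higher at an unadjusted p under 0.05. This gene for a very small zinc finger protein, known to help embryonic stem cells leave self-renewal, read 82583 and 71430 units in wild type. In null it read 123346 and 123580, so the groups did not overlap. The null arrays were higher by 0.68 on the log2 scale (SE 0.18, limma adjusted p = 0.204). Zfp62 read 6486 and 7943 units in wild type and 10470 and 12568 in null, 1.60-fold higher, with 0.69 in lot 1 and 0.66 in lot 2 (SE 0.21, adjusted p = 0.261).

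On the lower side, Zfp316 and Zfp454 came last in the ranking. Zfp454, a KRAB gene, read 664 and 793 units in wild type and 291 and 300 in null, and the 4 leave-out values ran from -1.42 to -1.17 around the value of all arrays, -1.30 on the log2 scale (SE 0.19, limma adjusted p = 0.0975). Its null mean of 296 ± 6.31 (SD, n = 2) lay in the range of Y-linked probes, so the size is not resolved from background. It was the only member with a group mean in that range. Zfp316 read 1470 and 806 units in wild type and 295 and 346 in null. The null array was lower in either lot, with log2 differences of -2.31 and -1.22 (mean -1.77, SE 0.35, adjusted p = 0.130). Null array 1 of Zfp316 lay in the range of Y-linked probes too, so its size in lot 1 and its mean are not resolved from background either. Both genes were kept through wild type, since their null means lay under the level at which genes were kept.

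Zfp934 and Zfp318 were 1.5-fold or more lower in either lot and passed at an unadjusted p under 0.05 only with the lot as a block. Blocking in limma took Zfp934 from an unadjusted p of 0.137 to 0.0127 (adjusted p = 0.128) and Zfp318 from 0.115 to 0.0276 (adjusted p = 0.158). Zfp934 read 11234 and 17533 units in wild type and 7070 and 11122 in null, with log2 differences of -0.67 and -0.66 in lots 1 and 2. Zfp318, which mature B cells need to make IgD, read 1999 and 1384 in wild type and 1292 and 579 in null (log2 difference -0.94, SE 0.47, limma adjusted p = 0.444). Zfp318 was at -0.36 without null array 2, Zfp934 at -0.34 without null array 1 or wild-type array 2. Zfp3 was just short of 1.5-fold in lot 2, with differences of -1.05 and -0.58. The other 7 of the 12 lowest (Zfp956, Zfp869, Zfp672, Zfp341, Zfp160, Zfp54 and Zfp637) had differences between -0.65 and -0.39. Zfp341 activates the gene of the signalling factor Stat3, and read 5739 and 6929 units in wild type and 4422 and 4856 in null (log2 difference -0.44, SE 0.20, adjusted p = 0.387). The difference of Zfp869 was 0.011 without null array 1.

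**Figure D3:**
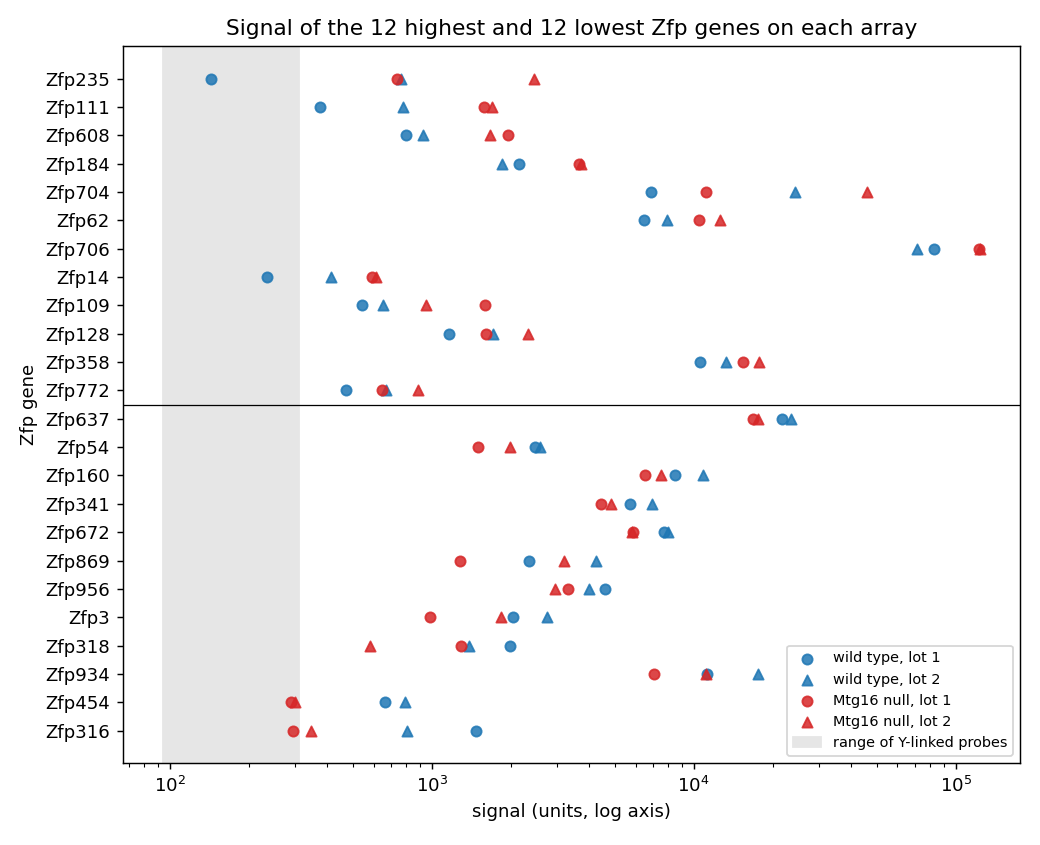
Signal units (log axis) on each of the 4 arrays for the 12 highest (top) and 12 lowest (bottom) Zfp genes, ranked by whichever lot showed the smaller difference; blue is wild type, red Mtg16 null, circles lot 1 and triangles lot 2, and grey the range of Y-linked probes, 94.5 to 310 units. Zfp704 has its lots far apart in either genotype, and the null arrays of Zfp454 lie in the grey range.

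Some members differed more between the array lots than between the genotypes. Whether the lots also held separate pools is not stated, so lot and pool cannot be told apart. Zfp61 read 13835 units in wild-type array 1 and 103117 in wild-type array 2, and 14921 and 122441 in the null arrays. Lot 2 was 7.45-fold and 8.21-fold higher, while the genotypes differed by 0.11 and 0.25 (log2) within the lots. Zfp639 was 5.13-fold and 4.86-fold higher in lot 2, in wild type and null, with genotype differences of -0.32 and -0.39. Zfp704 was 3.55-fold and 4.14-fold higher in lot 2 and showed 0.70 and 0.92 between genotypes. Its limma SE was 0.97 (adjusted p = 0.773). Blocking on the lot gave an SE of 0.13 (unadjusted p = 0.0110, adjusted p = 0.125). Leaving out wild-type array 1 or null array 2 put it at -0.10 or -0.22. With Zfp235 and Zfp606 these made 5 members (3.23%) that differed by at least 2-fold between lots in the same direction in both genotypes, and all 5 were higher in lot 2. Of all genes 2.51% differed that much. Wild-type array 1 of Zfp235, at 144 units, and of Zfp606, at 281 units, lay in the Y-linked range. The size of their lot difference in wild type is therefore not resolved from background.

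**Figure D4:**
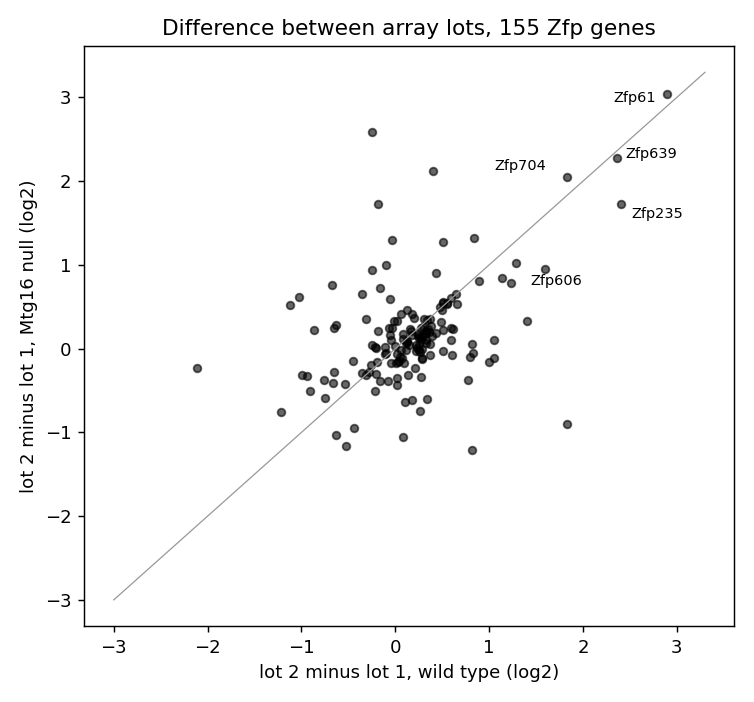
Lot 2 minus lot 1 on the log2 scale in wild type (horizontal) and Mtg16 null (vertical) for the 155 Zfp genes, with the line of equality in grey. Zfp61, Zfp639, Zfp704, Zfp235 and Zfp606 lie at the upper right, at least 2-fold higher in lot 2 in either genotype.

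How well the lots matched depended on the level. Among the 52 dimmest members (mean 433 to 1784 units), 25 had the same sign in both lots and the median size of the difference was 0.34. Among the middle 51, 34 had the same sign, and among the 52 brightest (5499 to 140280 units) 45 did, with a median size of 0.18. Across genes, lot 1 and lot 2 differences had a Pearson r of 0.25 in the dimmest, 0.43 in the middle and 0.83 in the brightest members. Over the 155 it was 0.33, and over all 8445 genes 0.55, with genes sharing arrays and normalization. Of the 10 members at 1.5-fold in both lots, 6 were among the dimmest. Zfp661 is a case of a difference seen in 1 lot, 2.83 in lot 1 and 0.10 in lot 2, but its wild-type array 1 read 203 units, in the Y-linked range, so the size in lot 1 is not resolved from background. Zfp367 read 587 and 493 units in wild type and 159 and 949 in null, so the lots had opposite signs, with null array 1 in that range.

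**Figure D5:**
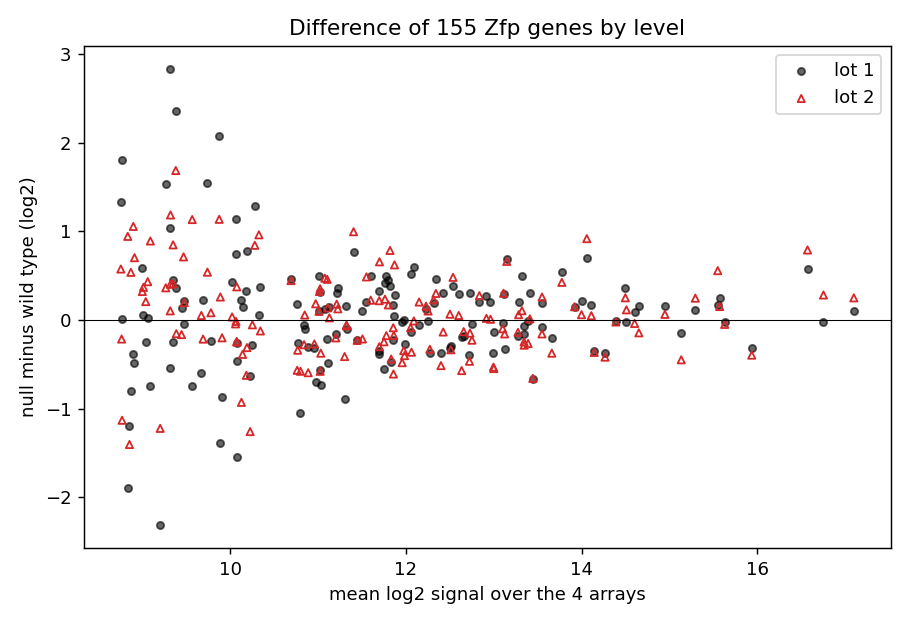
Null minus wild type on the log2 scale against mean log2 signal for the 155 Zfp genes, lot 1 in black and lot 2 in red. The points spread most at the dim end and narrow towards the bright end, where the median size of the difference was 0.18 against 0.34.

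Members listed by a known role were described apart from the ranking, and 0 of these 17 passed at an unadjusted p under 0.05 in limma. Of all 8445 genes 9.65% passed as higher and 6.83% as lower, and 17 genes are too few to set against those shares. The largest difference among these 17 members was that of Zfp318, -0.94, given above, which was lower by more than 1.5-fold in both lots. Among promoter binders, Zfp148, Zfp219 and Zfp281, which bind GC-rich elements, had differences of 0.009, 0.05 and 0.03 (SE 0.21, 0.17 and 0.21). Zfp281 read 22036 and 27559 units in wild type and 23499 and 26851 in null, with the groups interleaved. For Zfp148 a second kept probe gave -0.04.

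In RNA handling, Zfp622 and Zfp593, which take part in making the large ribosomal subunit, had differences of 0.13 and 0.08. Zfp622 was among the brightest members, at 115039 and 96529 units in wild type and 113618 and 117480 in null. Zfp598, the ubiquitin ligase of collided ribosomes, was at -0.45 (SE 0.25, limma adjusted p = 0.495), with 2390 and 2054 units against 1934 and 1362. Zfp346, which binds double-stranded RNA, read 19215 and 21792 units in wild type and 15153 and 16934 in null, without overlap (-0.35, SE 0.19, adjusted p = 0.461). Zfp326, of a complex that couples elongation with splicing, was at 0.30, and the RNA-binding Zfp106 at 0.11, with 0.14 from its second probe.

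Zfp451, a SUMO ligase, had a difference of -0.14. The spindle protein gene Zfp207, whose product binds the checkpoint protein Bub3, was at 0.36 (SE 0.34) and Zfp830 at 0.04. Zfp423, which binds and inhibits the B-cell factor Ebf1, read 3063 and 3339 units in wild type and 3738 and 5143 in null. The groups did not overlap (0.46, SE 0.23, limma adjusted p = 0.454), with 0.29 in lot 1 and 0.62 in lot 2. Among silencers of retroelements, Zfp809, which acts on murine leukaemia virus, was at 0.08 and Zfp932 at -0.15. Zfp687, a partner of Zmynd8, was at 0.14. The 2 other members of highest signal were Zfp825, at 134034 and 129712 units in wild type and 144274 and 154389 in null (0.18, SE 0.17), and Zfp771, at -0.03.

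The 52 genes below the cut were not counted above. The cut lay at a mean log2 signal of 8.70, or 417 units. Zfp14 (8.76) and Zfp438 (8.77) were just inside it, and Zfp819 (8.69) and Zfp105 (8.67) just outside. For 8 members 1 genotype's mean lay under the cut (Zfp235, Zfp14, Zfp661, Zfp367, Zfp438, Zfp941, Zfp454 and Zfp316), and for 13 genes outside it 1 genotype's mean lay above. Without the filter 10 of the 207 genes were higher (4.83%) and 7 lower (3.38%) at 1.5-fold in each of the lots, beside 7.72% and 6.05% of all 13840 genes. Zfp30 and Zfp78, both on chromosome 7, were among those added. Zfp30 read 158 and 206 units in wild type and 703 and 721 in null, and Zfp78 read 158 and 175 against 467 and 492. Their wild-type signals lay in the range of Y-linked probes, so no size is given. With them 4 of the 53 Zfp genes on chromosome 7 were higher in both lots (7.55%) and 0 lower, beside 7.02% and 5.28% of all 1211 genes there. On other chromosomes it was 6 and 7 of 154 (3.9% and 4.55%), beside 7.78% and 6.13% of all genes.

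Cofactors of KRAB proteins were read on the same arrays. Of 24 corepressor partners listed, 18 had a probe and 17 were kept, of which 1 was higher and 0 lower at an unadjusted p under 0.05, with a median difference of 0.10. For this list and those below, the shares of all 8445 genes were 9.65% higher and 6.83% lower. Trim28, the shared cofactor, read 105673 and 105822 units in wild type and 100171 and 100799 in null (log2 difference -0.07, SE 0.16, limma adjusted p = 0.893). The higher one was Dnmt3b, a DNA methyltransferase, at 16498 and 18102 units in wild type and 31109 and 32114 in null (0.87, adjusted p = 0.130). Of 8 zinc finger partners of ETO proteins, 4 had a probe and 2 were kept. These were Gfi1, a repressor that acts in granulocyte development, at 1.98 (adjusted p = 0.0840), and its relative Gfi1b, at -1.17 (adjusted p = 0.368). Of 15 other zinc finger genes of blood cells kept, 1 was higher and 1 lower at an unadjusted p under 0.05. They were Hivep3 (2.20, adjusted p = 0.0744) and Zfpm1 (-0.83, adjusted p = 0.161), the partner of Gata1.

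The arrays also differed in marker genes of several blood lineages, and their part in the Zfp differences was not tested. The targeted gene Cbfa2t3 read 80854 and 100256 units in wild type and 95520 and 118572 in null, so its probe does not check the labels. Summed over 12 late neutrophil genes, the signal was 1371300 and 1486800 units in wild type and 159860 and 149850 in null, and 11 of 12 were lower at an unadjusted p under 0.05. At that threshold 6.83% of all 8445 genes were lower and 9.65% higher. Of 7 early granulocyte genes 6 were higher, with sums of 1602700 to 1689200 against 3460900 to 4112800. Of 10 erythroid genes 8 were lower (sums of 1758300 to 2577700 against 1085100 to 1246000), and 4 of 4 megakaryocyte genes were higher (482940 to 483130 against 816500 to 932150). Such sums weigh the brightest genes most. In wild-type arrays 1 and 2, Car1 alone read 1586820 and 928454 units and the neutrophil gene S100a9 730356 and 886196. The median log2 differences of the late neutrophil, early granulocyte and erythroid lists were -3.53, 1.895 and -0.99. Of 7 early lymphoid and B genes 5 were higher (42882 to 49828 against 102860 to 106280), and 4 of 4 monocyte genes (84137 to 116020 against 250230 to 276420). Of 7 stem and progenitor genes 7 were kept and 2 were higher, Cd34 and Slamf1 (sums over the 7 of 122170 to 124880 against 150480 to 156810). Cd34 alone read 16790 and 13518 units in wild type and 42939 and 41215 in null. Kit, Gata2 and Hoxa9 had log2 differences of -0.19, -0.01 and -0.08, and Flt3 and Meis1 of 0.51 and 0.31. Of T and natural killer genes 3 of 5 were kept and 1 was higher, and Cd3e and Cd4 lay below the cut. In pooled marrow, fewer cells of a type and less RNA per cell cannot be told apart.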

How the data were processed

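The authors deposited 1 linear intensity per probe, 28.2 to 3093950 units for 33012 probes per array, from digoxigenin-labelled cRNA on single-colour arrays, per the labels' protocols. The values show that the authors had quantile normalized them, since sorted arrays differed by at most 0.286%. Scanner software, background correction and detection calls are not stated in any source used here. Of the probes 14411 had 1 gene symbol in the platform annotation, 247 several and 18354 none. The RefSeq table (GRCm38.p6) matched 14402 and changed 0 symbols. It served for names, chromosomes and gene order.

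Signals under the 1st percentile (75.8 units) were raised to it and log2 was taken. The brighter 50% of probes gave 8445 genes. Differences were fitted with limma 3.58.1 in R 4.3.3 (lmFit, eBayes) to the 4 arrays with 1 term, genotype, and adjusted by Benjamini-Hochberg over the 8445 genes. The fit was tested on simulated data. An exact permutation test of 2 arrays against 2 cannot go below 0.333 (two-sided). The series text gives the replicate number as the array lot, so it pairs arrays, and same-lot arrays deviated together (r = 0.50 across genes). The lot as a block was an alternative, with those in the closing section. Named genes were the 12 highest and 12 lowest by the smaller within-lot difference of equal sign, the 5 brightest, and members of lists by role, with others named after their values were seen. Members and lists were chosen with earlier results of these data known. A split by KRAB domain was planned and not made, since no protein sequences were used here. Figures were drawn with matplotlib 3.10.9.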

Additional observations from a re-analysis of the deposited data

How the results depend on the processing

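Under each setting tried, limma called 0 members at an adjusted p under 0.05. The smallest adjusted p was 0.0769, in limma with the variance trend. At an unadjusted p under 0.05, 8 members were higher and 2 lower. With the replicate block for the array lot these were 13 and 12, and with the brightest 25% of probes, which kept 75 members, 5 and 4. Without the filter on dim probes 6 were lower. With an array left out no count is given, since a genotype then rests on a single array. For the brightest 25% and for no filter, shares of all genes at an unadjusted p are not given, so those counts describe members alone. At 1.5-fold in both lots, 6 were higher and 4 lower, against 10 and 7 of 207 without the filter, and 2 and 1 with the brightest 25%. This count needs both lots, so it has no value with an array left out. The median difference of 0.07 was 0.047 without the filter, 0.049 with the brightest 25%, and -0.073 to 0.095 with an array left out. No floor, a pseudocount of 100, cyclic loess, median scaling, the variance trend and the mean of kept probes moved none of these past 1.5 times or, for the median, past the spread between lots. The cause of these shifts was not tested, beyond fewer or more genes counted. At an adjusted p under 0.05 the block changed no call among the members, while of all 8445 genes 10 passed without it and 0 with it.

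Of the 43 members named by rank, signal or role, 31 kept their sign with each setting. With an array left out, the difference crossed 0 for Zfp704 (-0.22 to 1.83), Zfp869 (-1.31 to 0.011), Zfp639 (-1.54 to 0.82), Zfp771 (-0.17 to 0.10), Zfp148 (-0.17 to 0.19), Zfp219 (-0.0066 to 0.10), Zfp281 (-0.13 to 0.19), Zfp106 (-0.0078 to 0.23), Zfp593 (-0.14 to 0.29), Zfp207 (-0.015 to 0.74), Zfp830 (-0.12 to 0.20) and Zfp809 (-0.25 to 0.41). Zfp148 was also at -0.016 with the mean of its 2 kept probes. Members named after their values were seen are outside these counts. With an array left out, Zfp61 (-1.34 to 1.70) and Zfp606 (-0.19 to 1.09) crossed 0 too, while Zfp516 (0.48 to 0.69) did not. Signal over background limits the dim members, as signals up to 310 units were read by probes of Y-linked genes.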
